A study of Mus musculus with 9 samples.

Results

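The comparison described here asks how 5-hydroxymethylcytosine (5hmC) is spread over the genome of macrophages labelled as Tet2 knockout, and it reads the deposited 5hmC peak counts by 1 Mb window and by chromosome. Each listed peak on chromosomes 1 to 19 was put in a fixed 1 Mb window by its midpoint, and its counts were summed per window and per chromosome. Of 9151 listed peaks, 9025 lay on these chromosomes, and they fell in 1640 windows. The DNA came from mouse macrophages at passage 0 treated with M-CSF, the growth factor that keeps macrophages alive. There were 2 libraries with the genotype label Tet2 Knockout and 2 with the label Wild-Type, called knockout 1 and 2 and wild type 1 and 2 below. How the Tet2 allele was made, whether it is lost in every cell, and whether libraries came from separate mice or cultures were not given in the sources used here. A p-value below therefore sets the difference against the spread among libraries alone. That spread may be technical, and outside a few windows it was close to counting error, as given below. All differences are knockout over wild type.

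TET2 converts the methylated cytosines of DNA to 5hmC by oxidation, a step on the way to demethylation. TET1 and TET3 catalyse the same reaction, and TET2 and TET3 are the members usually found in blood cells. In most cell types 5hmC lies mainly in the bodies of expressed genes and at enhancers. Enrichment sequencing measures the share of a library's signal at each place and not the absolute amount of 5hmC. A higher share in one genotype is thus not by itself a higher amount.

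The 4 libraries held 42372 counts (knockout 1), 38902 (knockout 2), 41664 (wild type 1) and 215809 (wild type 2) on chromosomes 1 to 19. A count of 0, read as up to 3 counts per library, allows up to 7.08, 7.71, 7.20 and 1.39 counts per 100000 counts on these chromosomes in them, which covers counting error only. Wild type 2 was thus the only deeply counted library. The 2 knockout libraries differed by less than sampling noise over windows (chi-square per degree of freedom 0.589), so their mean was counted as 1 sample. The wild-type pair gave 2.19, and 1.0 once 5 windows listed for high signal, described below, were left out. Outside those 5 windows the wild-type pair thus also differed by about sampling noise. A small window p-value there measures little more than counting error, and not a spread among mice or cultures. Every test here compares 1 knockout value with 2 wild-type libraries. On the RNA of the same study (2 knockout and 3 wild-type libraries), 8 macrophage markers summed to between 13214 and 20504 CPM (counts scaled to a total of 1000000 in each library) in all 5 libraries. Single markers differed by genotype within that sum. Adgre1 (7243 and 5904 CPM against 1321, 3085 and 805), Itgam, Fcgr1 and Cd14 were higher in both knockout libraries than in every wild-type library. Cd68 (214 and 370 against 1287, 671 and 703) and Mertk were lower, and Csf1r and Lyz2 overlapped. T-cell and erythroid markers summed to at most 0.0785 CPM. The 6 stromal markers reached 5053 CPM in wild type 3, which has no 5hmC library, and at most 1.15 in the others. B-cell markers were at 23.1 and 11.5 CPM in the knockout libraries and between 0.355 and 2.88 in the wild type. Granulocyte markers ran from 1.56 to 118 CPM and osteoclast markers from 27.5 to 151 CPM, both with no order by genotype. The part of other cells in the 5hmC results was not tested.

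The targeted gene was read first. The window of Tet2 (GRCm38 chromosome 3, 133 to 134 Mb) held 4 and 7 counts in the knockout against 16 and 103 in the wild type. These are 9.44 and 18 counts per 100000 against 38.4 and 47.7, without overlap. The single listed peak in the Tet2 gene body had 0 counts in both knockout libraries against 3 and 18 in the wild type. The latter are 7.20 and 8.34 counts per 100000, near the 7.08 and 7.71 that a 0 allows in the knockout libraries. All 5 peaks of the window, this peak among them, were called in the wild type alone, so they tend to be lower in the knockout. Whole-gene Tet2 RNA did not separate the labels, at 232 and 126 CPM against 86.2, 144 and 41.6, so directions below rest on the labels. A sequence listed as a knock-in did: its 2 peaks took 610 and 572 of every 100000 listed counts in the knockout 5hmC libraries against 14.1 and 18.3 in the wild type.

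Most peaks lie inside genes, and few reach a promoter: 6277 of the 9025 midpoints were in a gene body, and 100 peaks overlapped the 250 bases before to 50 after a start site in the RefSeq promoter table (GRCm38.p6, 31396 promoters on numbered chromosomes). The 3 stretches below are shown because they give the sequence of counted regions at gene starts: each is the part of a peak that falls within the 250 bases upstream of a gene in a window whose level differed. They are 3 of 10 such stretches, picked after their values were seen as those with a gene name that is not a Gm number. Some of the others run against their window, as at Gm40155, with 3 and 2 counts against 4 and 25 in a window that was higher. CG, the 2-base site at which mammalian DNA is methylated and hydroxymethylated, is in capitals. It reads the same on both strands.

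B230216N24Rik, wild-type peak, chr1:98047794-98048043, minus strand: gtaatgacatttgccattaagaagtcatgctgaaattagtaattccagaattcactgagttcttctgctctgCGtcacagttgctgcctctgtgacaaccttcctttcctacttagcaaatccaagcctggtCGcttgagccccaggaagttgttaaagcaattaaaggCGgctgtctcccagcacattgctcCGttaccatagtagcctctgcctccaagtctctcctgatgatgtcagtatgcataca
Naif1, knockout peak, chr2:32450207-32450356, plus strand: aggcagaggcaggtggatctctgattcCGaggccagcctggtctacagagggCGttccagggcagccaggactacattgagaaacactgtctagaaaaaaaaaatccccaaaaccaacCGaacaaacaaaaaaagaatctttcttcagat
Ralgapa1, knockout peak, chr12:55821517-55821725, minus strand: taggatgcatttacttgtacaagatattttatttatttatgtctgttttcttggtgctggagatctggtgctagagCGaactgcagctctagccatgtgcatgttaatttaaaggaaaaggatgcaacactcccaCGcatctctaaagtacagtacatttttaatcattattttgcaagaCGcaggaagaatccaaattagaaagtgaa

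The first stretch holds 4 CG and the others 3 each. In the stretch at the same place of all promoters, 92.4%, 84.3% and 90.2% held at least 1 CG, so a CG there is common. The peak at B230216N24Rik had 0 counts in each knockout library against 1 and 34 in the wild type. It is 1 of 2 peaks of a window that was lower in the knockout. The peak at Naif1, which codes for a nuclear protein, had 6 and 2 counts against 0 and 4. That at Ralgapa1, a subunit of a GTPase-activating complex for Ral proteins, had 10 and 3 against 2 and 7. Both lie in windows that were higher, and neither carries its window alone.

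Whether 5hmC fell or rose over the windows depended on how libraries were scaled. With TMM scaling, which sets the typical window to no change, 133 of 1261 tested windows passed an edgeR adjusted p of 0.05 (10.5%). Of these, 104 were higher in the knockout (8.25%) and 29 lower (2.3%). With total-count scaling, which sets the sums over chromosomes 1 to 19 equal, 220 windows passed (17.4%), 62 of them higher (4.92%) and 158 lower (12.5%). The median fitted log2 difference was -0.02 with TMM and -0.35 with total counts, and higher windows made up 78.2% and 28.2% of the calls. Both scalings use the same counts, and the TMM values lie above the total-count values by a median log2 of 0.33. The overlap of calls given next follows largely from that shift and is no independent support. All 29 lower windows by TMM were also lower by total count, 62 of the 104 higher windows were higher in both, and 0 windows were called in opposite directions. By TMM-scaled level alone, the knockout libraries were both above both wild-type libraries in 414 of the tested windows (32.8%) and both below in 426 (33.8%). All 133 called windows were among these. DESeq2 called 15 windows, all higher, and limma-voom 112 higher and 6 lower.

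**Figure D1:**
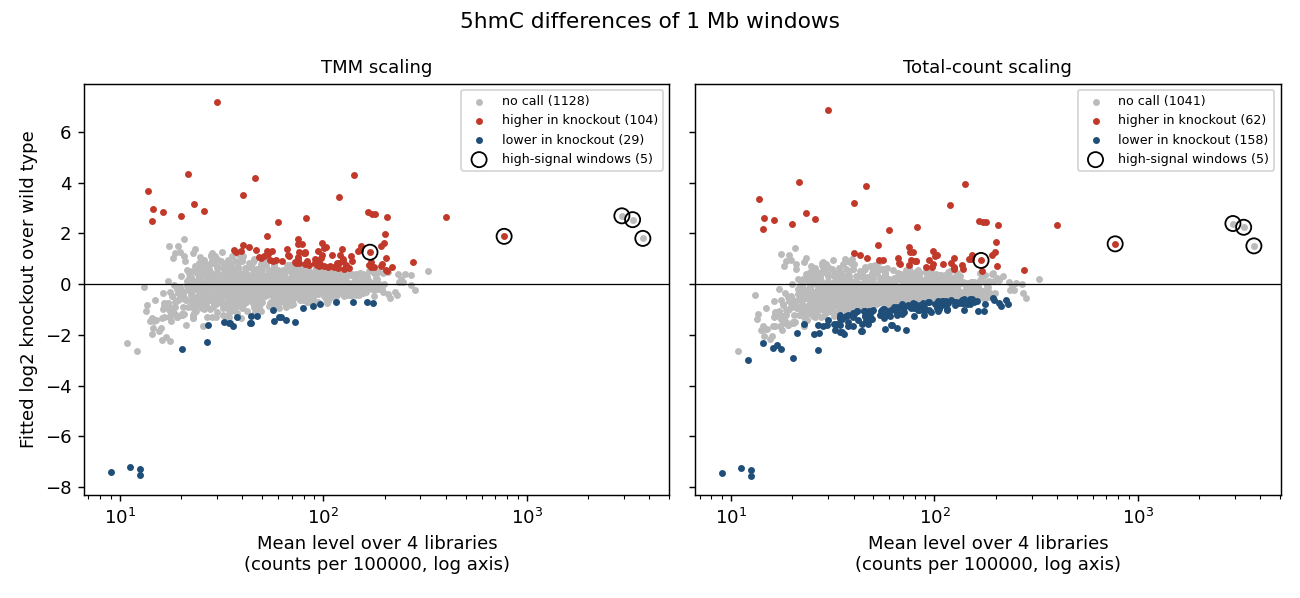
Each point is one of 1261 tested 1 Mb windows, with its mean level over the 4 libraries (counts per 100000, log axis) against the fitted log2 difference of knockout over wild type. TMM scaling is on the left and total-count scaling on the right. The cloud sits around -0.02 on the left and around -0.35 on the right, and the windows called higher reach far above it. Of the 5 circled high-signal windows 4 lie at the right of each panel. That on chromosome 12 has a level within the range of the cloud and was called higher, at log2 1.26 on the left and 0.93 on the right.

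The 104 windows that were higher lay on all 19 chromosomes. Their median log2 difference was 1.15, or 2.22-fold, and the fitted values ran from 0.53 to 7.17. The highest fitted value belongs to a window on chromosome 11 (48 to 49 Mb) with 31 and 18 counts against 0 and 1, where the wild-type count is too low for a fold to be read. The next was 4.34. The 10 higher windows with the smallest p are given next.

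The window with the smallest p was on chromosome 17 (13 to 14 Mb). It had 109 counts in each knockout library against 5 and 39 in the wild type, or 257 and 280 counts per 100000 against 12 and 18.1. The log2 difference was 4.29 ± 0.23 (SE; edgeR adjusted p = 3.1e-65). All 5 of its peaks were called in the knockout alone, and the leading one lies in 2700054A10Rik, a predicted gene. The leading peak of a window is here the one with the largest mean of the genotypes' scaled counts, which is not always the one with most raw counts. A window on chromosome 17 (39 to 40 Mb) with 156 and 124 counts against 25 and 151 rests on Rn18s-rs5, a copy of the 18S ribosomal RNA gene (log2 2.67 ± 0.18, edgeR adjusted p = 1.9e-44). Reads from many near-identical copies can be placed there, so its level is uncertain. The first 1 Mb with peaks on chromosome 18 (3 to 4 Mb) had 136 and 100 counts against 26 and 110 (log2 2.78 ± 0.19, edgeR adjusted p = 1.1e-41). The gene nearest to its leading peak is Vmn1r238, a vomeronasal receptor gene 116.5 kb away. Repeats were not annotated here.

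In other windows a single strong peak held most of the knockout counts. On chromosome 12 (74 to 75 Mb) the 1 peak of the window, nearest to the potassium channel gene Kcnh5, had 81 and 93 counts against 8 and 55. On chromosome 6 (103 to 104 Mb) the 1 peak, inside the neural adhesion gene Chl1, had 97 and 117 against 39 and 77. The wild-type libraries differed there, at 93.6 and 35.7 counts per 100000, both well under 229 and 301 in the knockout, and DESeq2 did not call it (adjusted p = 0.742). On chromosome 4 (70 to 71 Mb) 1 of 3 peaks, inside Cdk5rap2, which codes for a centrosome protein, held 118 and 120 of the 123 and 124 counts in the knockout, and 16 and 74 of 19 and 126 in the wild type. A peak nearest to Dpy19l2, a gene known from sperm head formation, carried the chromosome 9 window at 24 to 25 Mb (58 and 54 counts against 9 and 65).

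The remaining 3 hold between 8 and 16 peaks each. The chromosome 15 window at 75 to 76 Mb had the most counts of the 10, at 298 and 245 against 61 and 279. Its leading peak lies nearest to Ly6c2, a surface marker of inflammatory monocytes (log2 2.64 ± 0.22, edgeR adjusted p = 1.1e-29). The chromosome 3 window at 88 to 89 Mb had 129 and 124 counts against 33 and 224, with 8 of 15 peaks called in the knockout alone. Its leading peak lies in Lmna, which codes for the nuclear lamina proteins lamin A and C (log2 1.97 ± 0.17, edgeR adjusted p = 3.7e-26). On peaks that carry a wild-type call it was at 0.31 and lost the call (edgeR adjusted p = 0.763). The chromosome 15 window at 102 to 103 Mb had 110 and 111 counts against 59 and 227 (log2 1.60 ± 0.18, edgeR adjusted p = 2.0e-16). Its leading peak lies in Pcbp2, an RNA-binding protein gene, with 25 and 19 counts against 0 and 1. On peaks called in both genotypes alone, this window was at log2 -0.59, and on peaks that carry a wild-type call at 0.26 (edgeR adjusted p = 0.793). In 6 of these 10 windows, those of Lmna, Pcbp2, Ly6c2, 2700054A10Rik, Rn18s-rs5 and Vmn1r238, the call held without the leading peak. The other 4 had no other peak or too few counts left to be tested. Holding the call in this way is no independent support, since the peaks left include knockout-called ones, which had to be high there. All peaks of the 2700054A10Rik and Rn18s-rs5 windows were called in the knockout alone. On peaks that carry a wild-type call, the Ly6c2 and Vmn1r238 windows kept the call and the Lmna and Pcbp2 windows lost it.

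**Figure D2:**
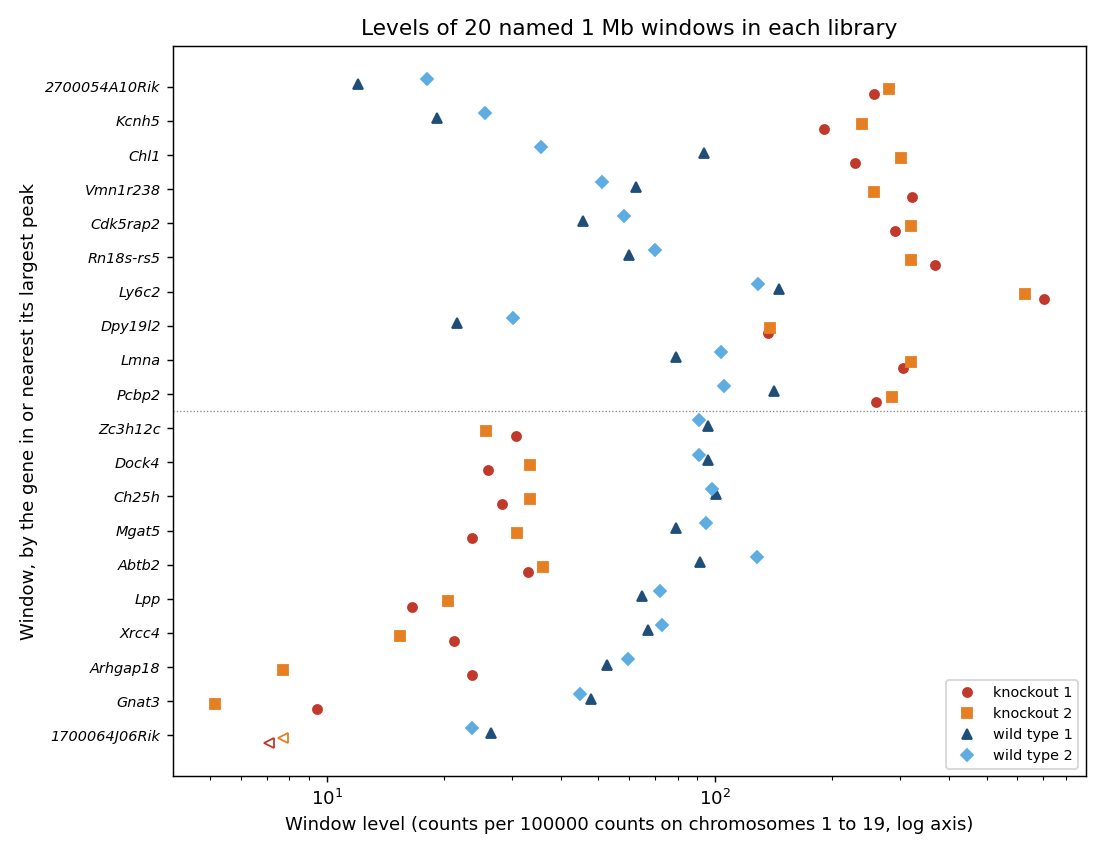
Levels of the 10 higher and 10 lower named windows in each library, in counts per 100000 on a log axis. Each window is labelled by the gene in or nearest its leading peak, open triangles mark a count of 0 placed at the level of 3 counts, and the knockout libraries are above both wild-type libraries over the dotted line and below both under it.

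A few knockout-called peaks within higher windows are given as examples. Their genes were picked after their values were seen, and peaks called in the knockout had to be high there. The peak in Ctsb, which codes for the lysosomal protease cathepsin B, had 59 and 52 counts against 11 and 13. That in Ctsd (cathepsin D) had 32 and 28 against 11 and 12, that in Psap (the precursor of the saposins, which help degrade sphingolipids) 26 and 24 against 8 and 12, and that in Gpnmb, a glycoprotein of lysosome-rich macrophages, 16 and 15 against 2 and 7. Wild type 2 is the deepest library, so an equal count there is a far lower share. A peak in Actb (beta-actin) had 24 and 33 counts against 9 and 45, and 3 peaks in Vim (vimentin) had between 18 and 27 in the knockout against 2 to 19 in the wild type. A peak in Ftl1, the ferritin light chain, had 27 and 23 against 3 and 10. The windows of Ctsb (log2 1.33), Vim (1.49), Actb (1.31) and Ftl1 (1.16) were higher with both scalings. That of Gpnmb was also higher with both (1.11). Those of Psap (0.85) and Ctsd (0.77) were higher with TMM alone (total-count adjusted p = 0.0905 and 0.159 in edgeR).

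The 29 windows that were lower lay on 12 chromosomes, with a median log2 difference of -1.44. In 4 of them the mean knockout count rounded to 0 and the fitted values, from -7.55 to -7.21, depend on the model's prior. With these at the ratio of the summed counts, or at their bound, the median stayed at -1.44, and the lowest of the others was -2.58. The one with the smallest p was on chromosome 2 (103 to 104 Mb), with 14 counts in each knockout library against 38 and 277 in the wild type. That is 33.0 and 36.0 counts per 100000 against 91.2 and 128 (log2 -1.48 ± 0.32, edgeR adjusted p = 2.1e-04). All 11 of its peaks were called in the wild type alone, and the leading one lies in Abtb2.

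The other lower windows with the smallest p follow. The chromosome 19 window at 34 to 35 Mb had 12 and 13 counts against 42 and 212. It holds the interferon-induced genes Ifit1 and Ifit3 and, nearest to its leading peak, Ch25h, which codes for the antiviral enzyme cholesterol 25-hydroxylase (log2 -1.41 ± 0.34, edgeR adjusted p = 0.0025). Its peak with most raw counts lies in Lipa, the lysosomal acid lipase gene, with 2 and 1 counts against 5 and 49. Listed peaks in the Ifit1 and Ifit3 bodies themselves were 0. The leading peaks of other lower windows lay in Mgat5, a glycosyltransferase gene of N-glycan branching (10 and 12 counts against 33 and 205 in the window), in Dock4, an activator of Rac (11 and 13 against 40 and 196), and in Xrcc4, a DNA end-joining factor (9 and 6 against 28 and 157). Near Zc3h12c, of a family of RNA-degrading zinc finger proteins, the window had 13 and 10 against 40 and 196. Near Lpp, a focal adhesion protein gene, it had 7 and 8 against 27 and 156.

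The last 3 named windows have few counts. Near Gnat3, which codes for the taste G protein gustducin, the window had 4 and 2 counts against 20 and 97. Around Arhgap18, a GTPase-activating protein gene, it had 10 and 3 against 22 and 129. The chromosome 10 window at 119 to 120 Mb, with its leading peak in the predicted gene 1700064J06Rik, had 0 counts in both knockout libraries against 11 and 51 in the wild type. Against a floor of 3 counts per library this is at least 3.06-fold lower. None of the 24 lower windows that could be tested without their leading peak kept the call, although all 24 kept the direction (median log2 -1.34). DESeq2 called 0 of the 29 and limma-voom 6.

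How a window moved went with how its peaks had been called. The authors called peaks on the merged libraries of each genotype, per the peak names, so a peak called in one genotype alone tends to be higher there. Over all 1261 tested windows, 8.25% were higher and 2.3% lower by TMM in edgeR. Of the 336 with no peak called in the knockout, 0 were higher and 26 lower (0 and 66 at an unadjusted p under 0.05). Of 89 in which most peaks carried a knockout call, 43 were higher and 0 lower (61 and 0 unadjusted). All 104 higher windows held a peak with a knockout call, as did every tested window but those 336. With peaks called in both genotypes alone, 15 of 520 tested windows passed, all higher. With all peaks that carry a wild-type call, 36 were higher and 1 lower of 1215. Single peaks also mattered: with the leading peak left out of each window, 15 windows were called, all higher, of 1009 tested. Of the 87 higher windows tested in that way, 14 kept the call and 79 kept the direction (median log2 0.85).

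The windows of TET enzymes and the DNA methylation machinery were followed as a list of 18 genes in 18 windows, 16 of them tested. By TMM 5 were higher and 0 lower in edgeR (5 and 1 at an unadjusted p under 0.05), against 8.25% and 2.3% of all windows. By total count 3 were higher and 1 lower, against 4.92% and 12.5% of all windows. The list's median log2 was 0.22 against -0.02 over all windows. The 1 lower by total count was the window of Tet2 itself (log2 -1.64, edgeR adjusted p = 0.0165). With TMM it was at -1.31 ± 0.53 and missed the threshold (edgeR adjusted p = 0.1).

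The window of Tet1 (chromosome 10, 62 to 63 Mb) had 94 and 86 counts against 73 and 344 (log2 0.78 ± 0.18, edgeR adjusted p = 7.6e-04 with TMM and 0.0805 with total counts). It turned on 1 knockout-called peak inside Tet1, chr10:62812496-62813387, with 43 and 31 counts against 0 and 2. Without it the window was at log2 0.14. Tet1 RNA was at most 0.426 CPM in any library. The window of Tet3 had 51 and 48 counts against 33 and 216 (log2 0.69, edgeR adjusted p = 0.041 with TMM and 0.27 with total counts). Those of Mbd2, which codes for a reader of methylated DNA, and of Mbd3, a gene of the same family, were higher with both scalings. Mbd2's had 29 and 26 counts against 18 and 73, and its 2 peaks in the gene body had 10 and 12 against 11 and 37. Mbd3's had 54 and 51 against 21 and 148, with 0 listed peaks in the gene body. The window of Dnmt3a, a DNA methyltransferase gene, is 1 of the 5 high-signal windows. It had 93 and 91 counts against 42 and 266 (log2 1.26 ± 0.19), but its leading peak lies outside Dnmt3a. Without that peak the value was -0.071, and the 4 peaks in the gene body had 19 and 19 counts against 19 and 109. The windows of Dnmt1 (log2 0.14), Dnmt3b (-0.10), Tdg (0.27) and Idh2 (0.09) did not pass.

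Among the other lists, each had between 0 and 3 windows called higher by TMM. Over all tested windows, 8.25% were higher and 2.3% lower by TMM, and 4.92% and 12.5% by total count. Of 18 windows of macrophage lineage factors, 1 was higher and 0 lower by TMM in edgeR (2 and 1 unadjusted), and 1 and 3 by total count. The higher one was that of Irf5, an interferon regulatory factor, with 62 and 63 counts against 40 and 207 (log2 1.0, edgeR adjusted p = 1.7e-04), whose leading peak lies in Smo. The window of Runx1, a transcription factor of blood cell development, had 53 and 39 counts against 38 and 281 and did not pass (log2 0.22, edgeR adjusted p = 0.649). That of Spi1, which codes for the lineage factor PU.1, had 56 and 43 against 37 and 275 (log2 0.37, edgeR adjusted p = 0.349). Those of Klf4 and Bcl6 were lower with total counts alone (log2 -1.04 and -0.95).

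Of 17 windows of macrophage surface and effector genes, 3 were higher and 0 lower by TMM (5 and 0 unadjusted), against 8.25% and 2.3% of all windows. By total count 3 were higher and 2 lower, against 4.92% and 12.5%. Lyz2, the lysozyme gene, lies in a window with 110 and 93 counts against 71 and 211 (log2 1.50 ± 0.18, edgeR adjusted p = 7.3e-14). Its single strong peak had 89 and 64 counts against 46 and 61, and without it the window was at 0.30 and lost the call. The window of Cd68, a lysosomal membrane glycoprotein, had 52 and 35 against 21 and 129 (log2 1.22), and that of the chemokine receptor Ccr2 35 and 31 against 8 and 63 (log2 1.89). Without their leading peak the windows of Cd68 (log2 0.95, edgeR adjusted p = 0.107) and Ccr2 (0.98, adjusted p = 0.286) lost the call, as did that of Irf5 above (0.80, adjusted p = 0.0905). The window of Csf1r, the receptor for M-CSF, had 30 and 27 against 44 and 241 (log2 -0.35, edgeR adjusted p = 0.464).

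Of 13 windows of osteoclast genes, 3 were higher and 0 lower by TMM (3 and 0 unadjusted), against 8.25% and 2.3% of all windows. By total count 2 were higher and 0 lower, against 4.92% and 12.5% of all windows. The 3 higher by TMM are those of Acp5, Fos and Calcr. Acp5 codes for tartrate-resistant acid phosphatase, the classic osteoclast enzyme. Its window had 43 and 40 counts against 19 and 119 (log2 1.28, edgeR adjusted p = 1.3e-04), and a peak inside the gene had 23 and 26 against 5 and 12. Without that peak the window was at 0.28 and lost the call (edgeR adjusted p = 0.731). The window of Fos, a transcription factor that osteoclasts need, had 91 and 83 counts against 75 and 341 (log2 0.73, edgeR adjusted p = 0.0023 with TMM and 0.127 with total counts), and without its leading peak it was at 0.66 (edgeR adjusted p = 0.134). Calcr lies in a window at 3 to 4 Mb of chromosome 6, whose only peak is outside the gene (14 and 17 counts against 5 and 9). The window of Nfatc1, the master factor of osteoclast formation, did not pass (log2 0.02, edgeR adjusted p = 0.971), nor did that of Ctsk, the collagen-degrading cathepsin K (log2 0.38, edgeR adjusted p = 0.25).

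Gene clusters gave few calls, on few windows. The shares over all tested windows were 8.25% higher and 2.3% lower by TMM, and 4.92% and 12.5% by total count. Of 7 windows with genes of the MHC or chemokine clusters, 1 was higher and 0 lower by TMM (1 and 1 unadjusted), and 1 and 1 by total count. It holds Tnf and the class I gene H2-D1, with 55 and 66 counts against 43 and 210 (log2 0.91), and the 1 peak in the body of H2-D1 had 10 and 7 against 2 and 3. Of 9 interferon windows, the Ifit window above was lower and that of Oasl2 was higher (32 and 42 counts against 23 and 142, log2 0.84), the latter with TMM alone. Of 4 HOX windows, the 1 called is the Pcbp2 window above, in which the HOXC genes Hoxc9 and Hoxc13 have 0 listed peaks. None of 3 histone windows passed with TMM (1 higher unadjusted). Of 9 imprinted windows, 2 were higher and 0 lower with TMM (3 and 0 unadjusted), and 0 higher and 2 lower with total counts, against 8.25% and 2.3%, and 4.92% and 12.5%, of all windows. That of H19 and Igf2 has its leading peak in Ctsd, and that of Peg10 in Col1a2, a collagen gene of stromal cells. The Col1a2 peak had 1 and 17 counts in the knockout against 0 in both wild-type libraries, so this call rests on knockout 2.

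Gene-rich windows were more often higher than gene-poor ones. When the tested windows were split into terciles by coding genes, 58 of the 421 with most genes were higher and 2 lower, against 23 and 10 of 420 in the middle and 23 and 17 of the 420 with fewest. The median log2 differences were 0.20, -0.06 and -0.24. With total counts, in the same order, 29 were higher and 26 lower, 14 and 57, and 19 and 75, with medians of -0.12, -0.39 and -0.57. Without the high-signal windows, the gene-rich windows held 43.6% and 44.2% of counts in the knockout against 38.3% and 38.5% in the wild type. The gene-poor windows held 25.1% and 25% against 28.6% and 28.4%. The genotypes did not overlap in any class. With the high-signal windows, 3 of which are gene-poor, the gene-rich shares overlapped (37.1% and 37.5% against 36.3% and 37.7%). The gene-poor shares were then higher in the knockout, at 32.1% and 32.1% against 31.6% and 29.4%. Over all tested windows the same order of medians was seen on peaks that carry a wild-type call (0.15, -0.09 and -0.16), on peaks called in both genotypes (0.07, -0.06 and -0.08) and without the leading peak (0.23, -0.11 and -0.24). Gene-rich windows also held more peaks, a median of 7 against 4.5, and a higher share of knockout-carrying peaks, a median of 25% against 16.7%, and the part of these in the difference was not tested. Terciles by wild-type RNA level, a mean of 3 libraries, gave a like pattern. By TMM 61 of the 421 windows with most RNA were higher and 7 lower, 18 and 10 of 420 in the middle and 25 and 12 of the 420 with least. The medians were 0.14, -0.02 and -0.21. Windows with most RNA also held more coding genes, a median of 17 against 5, and gene number and RNA level were not told apart.

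**Figure D3:**
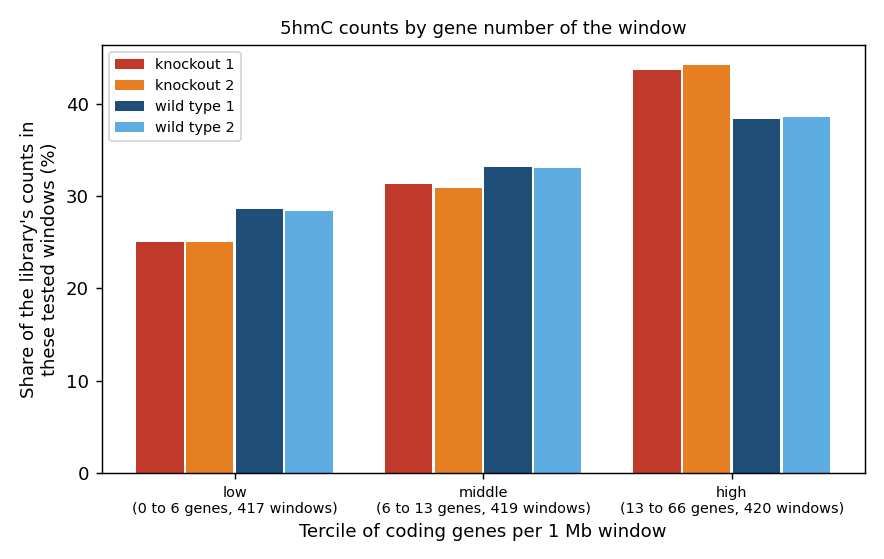
Share of each library's counts (%) in tested windows with few, intermediate and many coding genes, without the 5 high-signal windows, with 1 bar per library. In the gene-rich class the knockout bars stand at 43.6% and 44.2% and the wild-type bars at 38.3% and 38.5%, and in the gene-poor class the order is turned.

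Windows at the first assembled bases of a chromosome were often higher. Mouse chromosomes start with satellite repeats that are not assembled, and the sequence begins at about 3 Mb. Of 32 tested windows between 3 and 6 Mb, 11 were higher and 0 lower in edgeR (13 and 0 unadjusted), a share of 34.4% against 8.25% of all windows. These windows held 8.14% and 7.92% of counts in the knockout against 3.76% and 3.0% in the wild type. Without the high-signal windows among them the shares were 2.89% and 2.78% against 2.19% and 2.22%, and 10 of 30 were higher. Besides those of chromosomes 6, 12 and 18 given above, they include the windows of Sfi1, a centrosome gene (55 and 50 counts against 24 and 165), and of Vmn1r2 (50 and 40 against 20 and 99).

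A group of 5 windows was listed for high signal. They lie at 98 Mb of chromosome 2, 3 and 35 Mb of chromosome 9, 3 Mb of chromosome 12 and 19 Mb of chromosome 14, places known for satellite-like sequence to which reads of many copies map. Together they held 17.2% and 17.3% of counts in the knockout libraries, 6.50% in wild type 1 and 2.61% in wild type 2. The wild-type libraries thus differed widely from each other here. That on chromosome 12 had 219 and 234 counts per 100000 against 101 and 123, less than the Ly6c2 window above. The chromosome 14 window had 4940 and 4894 counts per 100000 in the knockout and 1207 and 681 in the wild type. The chromosome 9 window at 3 Mb had 5525 and 5388 against 1608 and 715, and that of chromosome 2 had 5374 and 5609 against 2998 and 883. Although the groups did not overlap, none of these 3 passed the window test (log2 2.69 ± 1.60, 2.54 ± 1.80 and 1.80 ± 2.09, edgeR adjusted p = 0.299, 0.402 and 0.653). The other 2 were higher, that at 35 Mb of chromosome 9 with log2 1.88 ± 0.44 (edgeR adjusted p = 6.0e-04).

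The calls by chromosome depended on these windows. With TMM scaling 6 of 19 chromosomes were higher (31.6% in all) and 0 lower (0.0%) in edgeR. At an unadjusted p under 0.05 there were 8 and 0, DESeq2 called 3 and 0, and limma-voom 6 and 0. The largest were chromosome 9 (log2 1.16 ± 0.08, SE), chromosome 14 (1.10 ± 0.09) and chromosome 2 (0.58 ± 0.08), followed by chromosomes 4 (0.27), 15 (0.25) and 17 (0.25). With total counts 10 of 19 passed (52.6%). Chromosomes 9, 14 and 2 were again higher (15.8%; log2 0.85, 0.78 and 0.27). Chromosomes 1, 3, 6, 8, 10, 13 and 16 were lower (36.8%), most of all chromosome 1 (-0.48) and chromosome 13 (-0.43). Chromosome 9 took 10.9% and 10.8% of counts in the knockout against 6.51% and 5.63% in the wild type. Chromosome 14 took 8.10% and 7.98% against 4.81% and 4.57%.

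Without the 5 windows the chromosomes came closer together, and other ones were called. Chromosome 14 went to log2 0.04 (edgeR adjusted p = 0.455) and chromosome 2 to 0.05 (adjusted p = 0.18), and chromosome 9 stayed higher at 0.21 (adjusted p = 3.2e-04, or 0.0544 with total counts). By TMM 11 chromosomes were then higher and 2, chromosomes 1 (-0.17) and 13 (-0.12), lower. By total count 4 were higher (chromosomes 4, 11, 15 and 17) and 3 lower (chromosomes 1, 13 and 16), and the median window moved from -0.35 to -0.13. Chromosome 1 held 5.93% and 5.95% of the remaining counts in the knockout libraries against 7.09% and 7.25%. Chromosome 4 held 6.78% and 7.18% against 6.19% and 6.27%. The spread in the chromosome fit is pooled over chromosomes and rests on the 2 wild-type libraries. Without knockout replicate 2, 3 chromosomes in place of 6 were called.

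**Figure D4:**
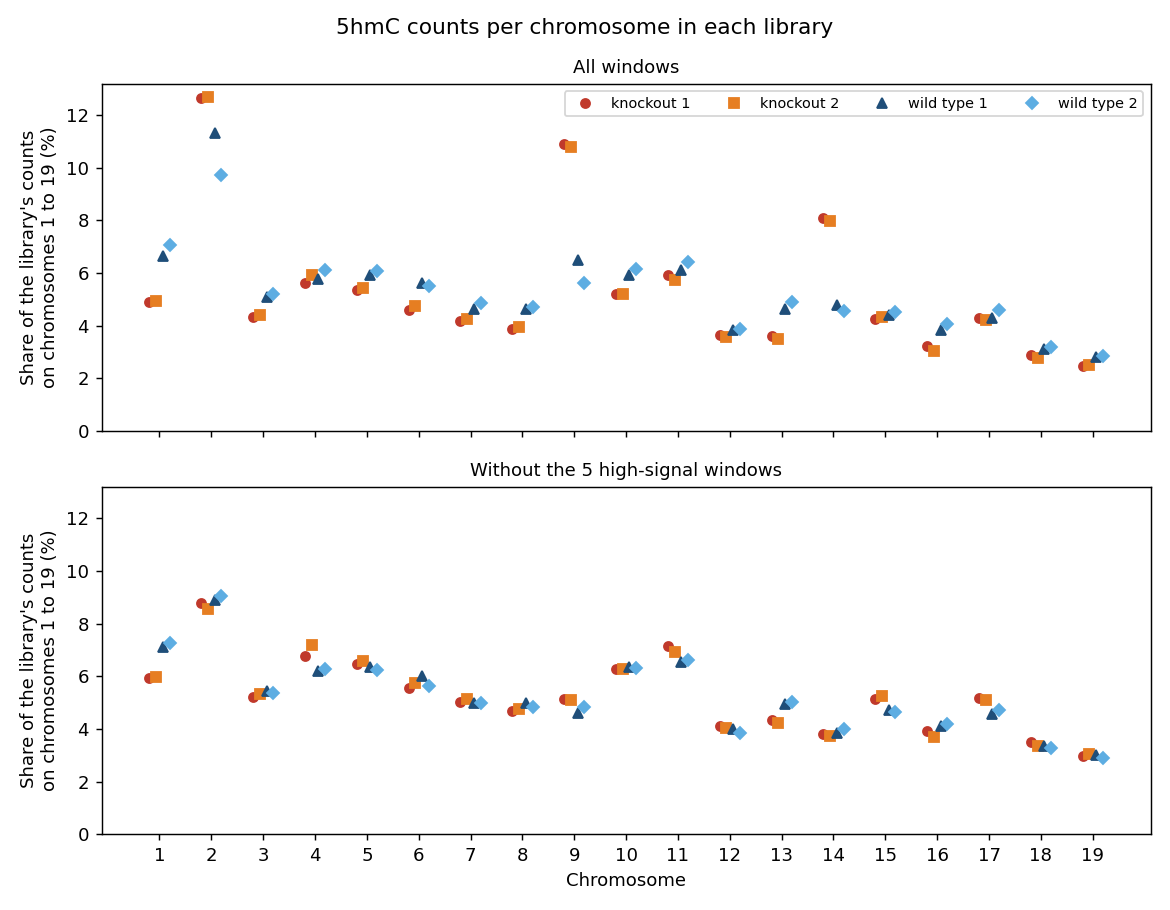
Share of each library's counts (%) on each chromosome, with all windows above and without the 5 high-signal windows below. In the upper panel the knockout libraries stand above the wild type on chromosomes 2, 9 and 14, and in the lower panel that gap is gone on chromosomes 2 and 14 while chromosome 1 remains lower.

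**Figure D5:**
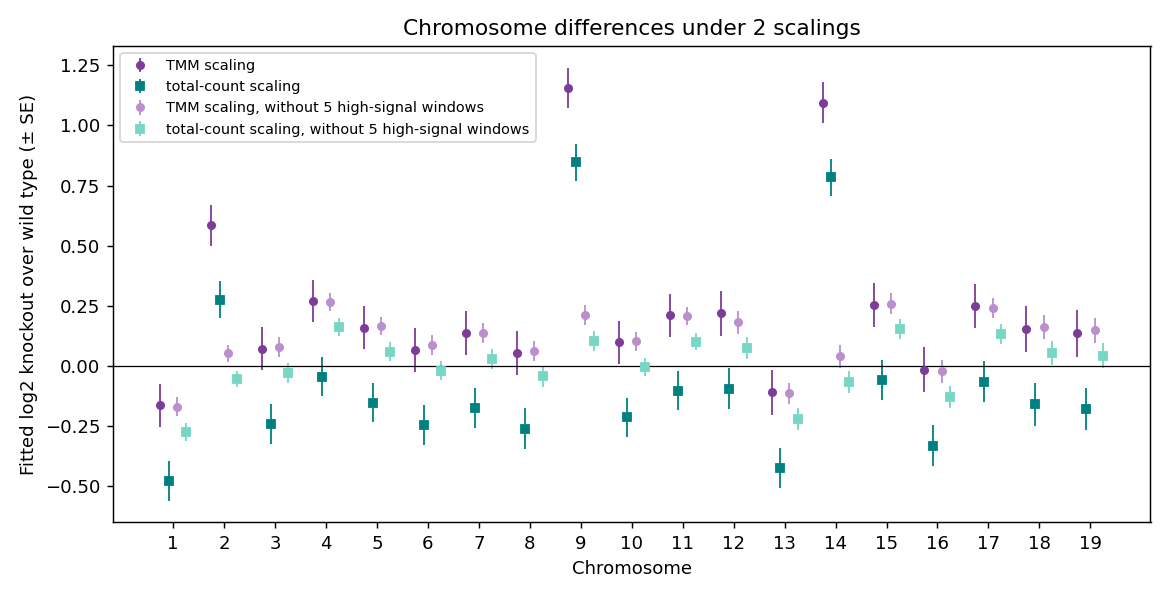
Fitted log2 difference of knockout over wild type per chromosome, with bars of 1 SE, under TMM and total-count scaling, with and without the 5 high-signal windows. Chromosomes 9 and 14 reach 1.16 and 1.10 with TMM and all windows, and total-count values lie below the TMM values on every chromosome.

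Neighbouring windows did not move together closely. Over 814 pairs of adjacent tested windows, Pearson's r of the log2 differences was 0.06 and the Spearman correlation 0.11, as a description, since windows of a library share its depth. In 9 pairs both windows were higher, in 0 both were lower, and in 1 the calls were opposite. The window difference in 5hmC and that in summed RNA of its genes showed no relation over 1228 windows with RNA in both genotypes (Pearson r = -0.00, Spearman correlation 0.01). This concerns the difference in RNA and not its level. The wild-type RNA is a mean that takes in wild type 3, the library with stromal markers and no 5hmC library. The window of Col1a2, for example, was at 80.0 CPM in the knockout against 888 in that mean. The median log2 RNA difference was -0.01 in 98 windows higher in 5hmC, 0.09 in 28 that were lower and -0.01 over all. No test was run on these sums.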

How the data were processed

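The 5hmC values are the authors' deposited counts of reads in each listed peak. Per the labels, the DNA had been enriched through a biotin tag on 5hmC. The RNA values are counts per gene as deposited, and served as a check and description only. The build was GRCm38, and BWA, STAR, MACS2, HTSeq, Trim Galore and CASAVA 1.4 were used, per the submitters' processing notes. What each tool did, how duplicate and multiply placed reads were treated, and how listed peaks were chosen were not given in the sources used here. The names of peaks show peaks called on merged knockout libraries (1094 on chromosomes 1 to 19), on merged wild-type libraries (6994) or in both (937).

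Counts were summed per 1 Mb window and fitted in R 4.3.3 with the quasi-likelihood test of edgeR 4.0.16 (filterByExpr, two-sided, Benjamini-Hochberg over all windows tested, threshold 0.05), with TMM factors or with factors of 1. The knockout mean was entered as 1 sample, so the spread comes from the 2 wild-type libraries and is pooled over windows. Chromosome sums used the window factors, with 1 dispersion. In all, 379 windows failed the filter. Median peak width was 370 bp. Total counts per library on these chromosomes ran from 38902 to 215809, and few counts limit what can be detected in the 3 smaller libraries. Steps were tested on simulated counts.

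Named windows were the 10 higher and 10 lower with the smallest p, called with TMM and without overlap, the window of Tet2, and up to 3 called windows of each list. Genes of peaks are those whose body holds the midpoint in the RefSeq gene table of the build, or the nearest. Of 47731 RNA genes 47224 had a symbol. The members and lists were chosen with earlier results of these data known. Alternatives were limma-voom of limma 3.58.1, DESeq2 1.42.0, other scalings, filters, window sizes, peak subsets and replicates. Added after the data were seen were the knockout libraries summed, 2 knockout samples without a wild-type library, and total counts without the high-signal windows.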

Additional observations from a re-analysis of the deposited data

Results flagged for a closer look

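Peaks outside chromosomes 1 to 19, which the window comparison does not use, held more of the listed counts in both knockout libraries than in either wild-type library. All values are counts per 100000 counts in all listed peaks. The 49 peaks on unplaced contigs, short sequences with no chromosome that are rich in repeats, held 6217 and 6166 in the knockout libraries against 1493 and 871. The 2 peaks on the sequence listed as a knock-in held 610 and 572 against 14.1 and 18.3. The 4 peaks on mitochondrial DNA held 757 and 873 against 248 and 82.6. The 68 peaks on chromosome X held 697 and 770 against 602 and 513. The 3 peaks on chromosome Y held 64.9 and 61.2 against 18.7 and 24.2. These values were not tested.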

How the results depend on the processing

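Against 133 windows and 6 chromosomes called with TMM, total counts over all listed peaks called 264 windows (50 higher, 214 lower) and 16 chromosomes. Total counts over chromosomes 1 to 19 called 220 and 10, and the median window went to -0.45 and -0.35 under these scalings (-0.13 without the 5 high-signal windows, with 131 windows called). DESeq2 called 15 windows and 3 chromosomes. With the knockout libraries as 2 samples there were 313 windows (192 higher, 121 lower) and 14 chromosomes, and with them summed 312 windows. The replicate block, which could be fitted with 2 knockout samples, called 202 windows and 9 chromosomes. Nothing in the labels ties equal numbers to one animal or batch, so the numbers are taken as names only. The deviations of libraries with number 1 had r = -0.05 over 1261 windows. The knockout pair differed by less than sampling noise, so this value cannot show whether libraries were paired. Peaks called in both genotypes gave 15 windows and 2 chromosomes, peaks with a wild-type call 37 windows, and leaving out each window's leading peak 15. Leaving out the high-signal windows gave 13 chromosomes. Without a knockout replicate 137 to 152 windows, 3 to 5 chromosomes and medians of -0.02 to -0.01 were found. Without a wild-type replicate no test could be made with 1 knockout sample. With 2, there were 325 windows (125 lower) and 18 chromosomes without wild type 1, and 161 (50 lower) and 12 without wild type 2, chosen after seeing the data.

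Directions turned in 7 cases among the named windows and 8 among chromosomes, and the cause was not tested. With peaks called in both genotypes, the windows of Pcbp2, Tet1, H2-D1, Fos and Ctsd went to -0.59, -0.27, -0.33, -0.48 and -0.23. Without the leading peak, those of Dnmt3a and Ctsd went to -0.071 and -0.027. With total counts over chromosomes 1 to 19, chromosomes 4, 15 and 17 were at -0.046, -0.061 and -0.066, and over all listed peaks at -0.15, -0.16 and -0.17. Chromosomes 2 and 14 were at -0.055 and -0.068 with total counts without the 5 windows. The filter on low counts, window size and offset moved the window count to between 111 and 157, and a minimum of 10 counts in place of the filter called 11 chromosomes higher and 1 lower.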

Other observations

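At single peaks the 2 knockout libraries can be set against each other. Of 2472 peaks with at least 10 counts over both, the peak with the smallest p lay in Col1a2, a collagen gene of stromal cells, with 1 count in knockout 1 and 17 in knockout 2 and 0 in both wild-type libraries. It did not pass the adjustment over all peaks (exact binomial test, adjusted p = 0.109). The next by p were peaks at Tpm1 (1 and 14 counts, adjusted p = 0.41 in the same test) and Cdh12, a cadherin gene (2 and 15, adjusted p = 0.754). A peak at Mgp, a matrix protein gene of cartilage and vessels, had 1 and 10. Peaks at Vmn1r238 (35 and 14) and Prtn3 (12 and 3) went the other way. None of these passed the adjustment. RNA of 6 stromal markers summed to 1.06 and 0.667 CPM in the knockout RNA libraries. The part of stromal cells in these peaks was not tested.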
